A study of Mus musculus with 2 samples.

Results

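The 9 genes described here, Ucn3, G6pc2, Slc2a2, Trpm5, Cox6a2, Ero1lb, Slc30a8, Ffar1 and Esrrg, belong to the machinery by which a mature beta cell senses glucose and releases insulin. They were taken by symbol from a table of 46983 genes. Counts came from sorted tdTomato-positive islet cells of mice at postnatal day 9, in 1 library of Isl1CKO mice (Neurod1 Cre/+; Isl1f/f) and 1 library of control mice (Neurod1 Cre/+; Isl1f/+). Control mice thus carry the same Neurod1-driven Cre as Isl1CKO mice and keep an Isl1 allele that is not floxed, and both lines carry the tdTomato reporter. Each library pools 6 animals, so there is no replicate of either genotype, no test was possible, and every interval below is at 95% and covers counting error alone.

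A newborn beta cell makes insulin but responds poorly to glucose, and the glucose response is acquired after birth as genes of uptake, metabolism and secretion come up. Glucose enters the mouse beta cell through the transporter made from Slc2a2, is broken down and oxidised in mitochondria, and the resulting ATP closes potassium channels so that the cell depolarises and insulin granules fuse. Ucn3, a peptide hormone of the corticotropin-releasing factor family, is stored with insulin and is widely used as a marker of beta-cell maturity in mice.

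The Isl1CKO library held 3020 cells with 78068592 unique molecular identifiers (UMIs, each taken as 1 captured RNA molecule), and the control library held 2504 cells with 72548173 UMIs. Median depth was 24906.5 UMIs per cell in Isl1CKO and 22638.5 in control, and 4 barcodes occurred among the cells of both libraries. Insulin-rich cells were defined as those in which Ins1 and Ins2 together took at least 20% of UMIs. There were 383 of them in Isl1CKO (12.7% of cells) and 898 in control (35.9%). In insulin-rich cells Iapp, Pdx1 and Nkx6-1 were detected in both libraries, whereas Mafa, the late activator of insulin transcription, had 4 UMIs in Isl1CKO and 127 in control. The mesenchymal, endothelial and immune marker lists summed to at most 1.36 CPM (UMIs of the genes among each 1000000 UMIs) there in either library. Cells with at least 1% of UMIs from the mesenchymal list were set apart first, so its low sum is partly fixed by that rule. The enterochromaffin list, led by Chgb, summed to 9736 CPM in Isl1CKO and 1526 in control, with Lmx1a at 0 in both. The erythroid list summed to 3.20 CPM in Isl1CKO and 391 in control. Their part in the results below was not tested. Isl1 itself stood at 188 CPM in Isl1CKO insulin-rich cells and 87.5 in control insulin-rich cells. These 3′ tags may lie outside the deleted part of the gene, which the labels do not give, so this level checks neither label.

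The insulin share is a continuous measure and the 20% limit cuts a range rather than separating cell types. Between 15 and 20% insulin lay 44 Isl1CKO and 2 control cells, and between 20 and 25% lay 21 Isl1CKO and 5 control cells. Just below the limit Ucn3 stood at 4.93 CPM in Isl1CKO and just above it at 7.69, and G6pc2 stood at 46.4 and 72.3. Median insulin share among insulin-rich cells was 50.4% in Isl1CKO and 65.5% in control, and median depth was 38693 UMIs in Isl1CKO and 48339.5 in control. The other hormones were near 0 in most of these cells, with median shares of 0% for Gcg, 0% for Sst and 0.00306% for Ppy in Isl1CKO, and 0.0294%, 0.00605% and 0.0230% in control.

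In insulin-rich cells 8 of the 9 genes were lower in Isl1CKO than in control, and 1, Esrrg, was higher. Levels are given in CPM, and ratios as log2 of Isl1CKO over control, set relative to the median gene. That median was taken over the 10080 genes whose UMIs, where their CPM was higher, came to 50 or more, and it lay 0.41 higher in Isl1CKO on the log2 scale. All 9 genes passed the minimum. Of these, 5 were at least 2-fold lower (Cox6a2, Trpm5, Ucn3, G6pc2 and Ero1lb), against a background of 4.73% of all genes compared, and Esrrg was at least 2-fold higher, against a background of 4.97%. Counted over UMIs outside the islet hormones, the 5 and the 1 were the same in number, against backgrounds of 4.38% lower and 4.75% higher.

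**Figure D1:**
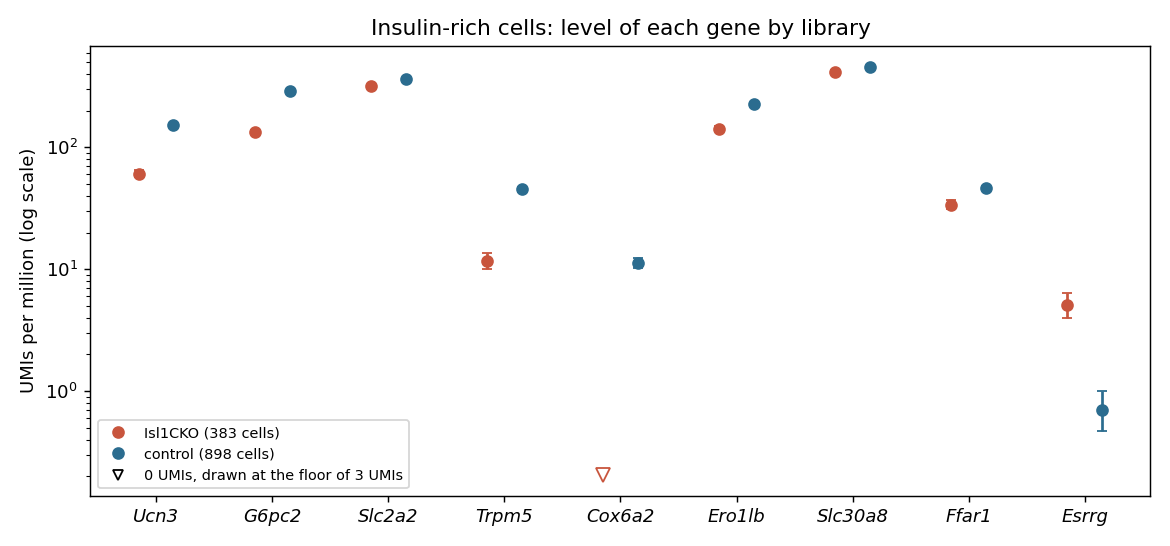
Level of each gene in insulin-rich cells, in CPM on a log axis, with Isl1CKO (383 cells) left of control (898 cells). Points are library sums, bars are exact Poisson 95% intervals, and the open triangle marks Cox6a2 with 0 UMIs in Isl1CKO, drawn at the floor of 3 UMIs. All genes but Esrrg lie lower in Isl1CKO.

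Among the secreted and glucose-handling products, Ucn3 had 891 UMIs or 60.7 CPM (interval 56.8 to 64.8) in Isl1CKO insulin-rich cells, against 6487 UMIs or 152 CPM in control insulin-rich cells. Relative to the median gene it was 3.33-fold lower, a log2 ratio of -1.73 (-1.84 to -1.63). G6pc2 encodes an islet glucose-6-phosphatase that turns glucose-6-phosphate back into glucose. It stood at 134 CPM in Isl1CKO and 289 CPM in control, a relative log2 ratio of -1.52 (-1.59 to -1.45). Slc2a2, the glucose transporter GLUT2, stood at 318 CPM in Isl1CKO and 366 CPM in control, and its relative log2 ratio of -0.61 (-0.66 to -0.57) did not reach 2-fold.

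Among the channels and receptors of stimulus and secretion, Trpm5 had the larger difference. Trpm5 encodes a calcium-activated monovalent cation channel that depolarises the cell. It had 173 UMIs or 11.8 CPM in Isl1CKO and 1944 UMIs or 45.4 CPM in control, a relative log2 ratio of -2.36 (-2.59 to -2.14). Ffar1, the receptor for long-chain fatty acids that amplifies glucose-stimulated secretion, stood at 33.9 CPM in Isl1CKO and 46.5 CPM in control, with a relative log2 ratio of -0.87 (-1.01 to -0.73). On its opposite strand Trpm5 overlaps an exon of Tssc4. Tssc4 had 1044 of 14680729 UMIs in Isl1CKO insulin-rich cells and 3592 of 42777752 UMIs in control insulin-rich cells. The sources used here do not say whether the counting used strand, so reads of Trpm5 and Tssc4 there may not be separated.

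Cox6a2 encodes the striated-muscle form of a cytochrome c oxidase subunit, and it was not detected in any of the 383 Isl1CKO insulin-rich cells, against 482 UMIs or 11.3 CPM in control. Set against a floor of 3 UMIs in Isl1CKO, it was 73.4-fold lower relative to the median gene, a log2 ratio of -6.20. The upper end of its counting interval was -5.89. Its widely expressed paralog Cox6a1 stood at 195 CPM in Isl1CKO and 158 CPM in control, a relative log2 ratio of -0.10. Of 12 other cytochrome c oxidase genes, 9 passed the minimum and none was at least 2-fold different, with relative log2 ratios between -0.36 and 0.06. Itgad, whose exon overlaps Cox6a2 on the opposite strand, had 0 UMIs in both libraries.

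Ero1lb and Slc30a8 serve the making and packing of insulin. Ero1lb, an oxidase that restores protein disulfide isomerases as proinsulin folds, stood at 142 CPM in Isl1CKO and 226 CPM in control, a relative log2 ratio of -1.08 (-1.15 to -1.01). Slc30a8, the transporter ZnT8 that loads zinc into granules, stood at 419 CPM in Isl1CKO and 456 CPM in control, and its relative log2 ratio of -0.53 (-0.57 to -0.49) was the smallest of the 9. Of 10 genes for insulin folding and zinc binding, 1 was at least 2-fold lower: Creld2, a chaperone-like endoplasmic reticulum protein, at 42.9 CPM in Isl1CKO and 69.1 CPM in control.

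Esrrg, an orphan nuclear receptor that activates oxidative metabolism genes in maturing mouse beta cells, was the exception. It had 75 UMIs or 5.11 CPM (4.02 to 6.40) in Isl1CKO insulin-rich cells and 30 UMIs or 0.701 CPM in control insulin-rich cells, a relative log2 ratio of 2.45 (1.82 to 3.11). These are the fewest UMIs of any of the 9 genes detected in both libraries. Its paralog Esrra stood at 3.82 CPM in Isl1CKO and 3.32 CPM in control, and Esrrb had 0 UMIs in both.

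Positions are from GENCODE M21 (build GRCm38, counted from 1). Ucn3 (ENSMUSG00000044988.7) spans chr13:3940688-3945349 on the minus strand and Ero1lb (ENSMUSG00000057069.6 in the files) chr13:12565874-12611396 on the plus strand. G6pc2 (ENSMUSG00000005232.11) spans chr2:69211073-69227841, Slc2a2 (ENSMUSG00000027690.13) chr3:28697903-28731359, Slc30a8 (ENSMUSG00000022315.3) chr15:52295553-52335798 and Esrrg (ENSMUSG00000026610.13) chr1:187608791-188214885, all on the plus strand. Trpm5 (ENSMUSG00000009246.14) spans chr7:143069153-143094642, Cox6a2 (ENSMUSG00000030785.8) chr7:128205435-128206387 and Ffar1 (ENSMUSG00000044453.5) chr7:30857390-30861564, all on the minus strand. No exon of another gene overlaps theirs on the same strand.

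The 250 bases before the RefSeq start of Ucn3, G6pc2, Trpm5 and Ero1lb are shown. These are the genes at least 2-fold lower in Isl1CKO whose promoter was at hand. For Ero1lb that start lies 9 bases inside the gene as positioned above. The sequences are RefSeq's for GRCm38.p6, written 5′ to 3′ on the strand of the gene, and capitals mark TAAT on either strand, the core that homeodomain proteins such as Isl1 bind. Ucn3 lies at chr13:3945350-3945599 (minus), G6pc2 at chr2:69210823-69211072 (plus), Trpm5 at chr7:143094643-143094892 (minus) and Ero1lb at chr13:12565633-12565882 (plus).
Ucn3: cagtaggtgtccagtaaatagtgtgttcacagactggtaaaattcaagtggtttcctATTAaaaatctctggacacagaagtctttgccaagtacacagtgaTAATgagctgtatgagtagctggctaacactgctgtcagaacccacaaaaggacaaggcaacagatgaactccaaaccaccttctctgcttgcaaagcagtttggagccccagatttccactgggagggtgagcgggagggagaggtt
G6pc2: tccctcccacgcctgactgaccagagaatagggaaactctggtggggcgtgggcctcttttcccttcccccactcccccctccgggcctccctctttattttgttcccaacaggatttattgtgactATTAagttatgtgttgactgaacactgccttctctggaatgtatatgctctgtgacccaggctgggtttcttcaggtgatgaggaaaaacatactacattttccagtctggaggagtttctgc
Trpm5: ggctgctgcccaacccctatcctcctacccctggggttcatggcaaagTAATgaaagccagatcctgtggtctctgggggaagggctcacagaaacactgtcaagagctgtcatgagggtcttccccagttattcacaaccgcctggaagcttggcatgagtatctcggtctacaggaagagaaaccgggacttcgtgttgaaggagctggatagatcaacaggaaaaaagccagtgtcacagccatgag
Ero1lb: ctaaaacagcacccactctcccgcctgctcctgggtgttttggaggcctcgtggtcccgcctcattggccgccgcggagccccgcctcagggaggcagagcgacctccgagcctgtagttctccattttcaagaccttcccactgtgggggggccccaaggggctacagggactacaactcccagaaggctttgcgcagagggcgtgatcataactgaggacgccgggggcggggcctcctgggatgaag
Ucn3 held 2 such matches, G6pc2 and Trpm5 held 1 each, and Ero1lb held 0. Of the 7 genes with an entry, 5 held TAAT on either strand, as did 55.3% of 27025 promoters of this length. Among the 5 was Esrrg, whose entry starts 215 bases from the GENCODE start, with first bases not found in a GENCODE transcript. The MafA half-site TGCTGA occurred in 1 of the 7 (Ffar1), against 15.8% of all promoters, and the estrogen-related receptor site TCAAGGTCA in 0 of the 7, against 0.366%. A match is a description of the letters, not evidence of binding.

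Part of the difference goes with how much insulin RNA the cells held. The plot by insulin share gives each gene in cells at 20 to 40%, 40 to 60% and 60 to 80% insulin, with 112, 168 and 103 Isl1CKO cells and 40, 185 and 668 control cells. Ucn3 was higher in cells with more insulin in both libraries, at 21.4, 59.7 and 91.5 CPM in the 3 ranges of Isl1CKO and 48.6, 100 and 167 CPM in those of control. Trpm5 had the same order, at 3.14, 11.9 and 18.1 CPM in Isl1CKO and 13.2, 24.8 and 51.3 CPM in control. Both genes lay lower in Isl1CKO in every range, and for Trpm5 at 20 to 40%, with 11 UMIs in Isl1CKO and 16 in control, too few UMIs were counted for the comparison. In the 3 ranges 3 of 6, 1 of 7 and 3 of 8 genes that passed the minimum were at least 2-fold lower in Isl1CKO, against backgrounds of 1.21%, 3.06% and 6.2%. Ucn3, G6pc2 and Ffar1 were the 3 at 20 to 40%, Trpm5 the 1 at 40 to 60%, and G6pc2, Trpm5 and Cox6a2 the 3 at 60 to 80%.

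**Figure D2:**
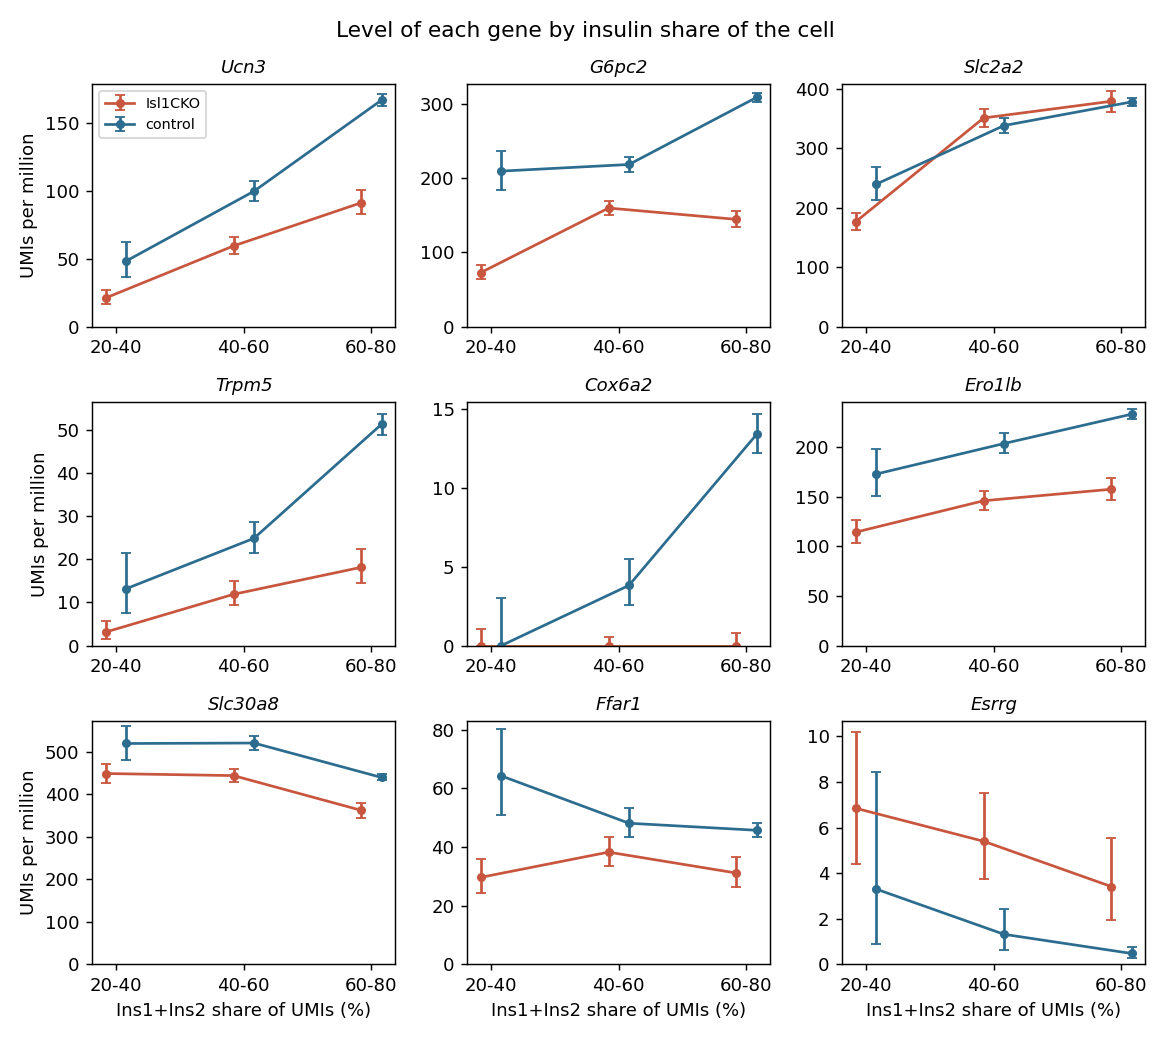
Level of each gene (CPM, axis from 0) against the insulin share of the cell (20 to 40, 40 to 60 and 60 to 80% of UMIs), for Isl1CKO and control. Bars are exact Poisson 95% intervals. Slc2a2 lies close together in the libraries above 40% insulin, whereas Cox6a2 stays at 0 in Isl1CKO in all 3 ranges.

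Slc2a2 lay close between the libraries above 40% insulin. It stood at 177, 351 and 379 CPM across the 3 ranges in Isl1CKO and at 240, 338 and 378 CPM in control, so that in the upper ranges the relative log2 ratio was 0.00 (-0.08 to 0.08) and 0.09 (0.02 to 0.16). G6pc2 stood at 73.0, 160 and 144 CPM in Isl1CKO and at 209, 218 and 308 CPM in control. It was thus lower in Isl1CKO in each range, with the smallest difference at 40 to 60%. Cox6a2 was at 0 UMIs in each Isl1CKO range, and in control at 0, 3.81 and 13.4 CPM, so that in control too it was found in the cells richest in insulin. Slc30a8 stood at 449, 444 and 362 CPM in Isl1CKO and at 520, 521 and 440 CPM in control. Over UMIs outside the islet hormones its order turned, with 698, 992 and 1127 CPM in Isl1CKO and 946, 1306 and 1554 CPM in control. Esrrg stood at 6.84, 5.40 and 3.41 CPM in Isl1CKO and at 3.30, 1.31 and 0.473 CPM in control, but over UMIs outside the islet hormones at 10.6, 12.0 and 10.6 CPM in Isl1CKO, with no order, and at 6.00, 3.30 and 1.67 CPM in control.

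With control levels weighted to the insulin shares of Isl1CKO cells, 2 of the 9 genes remained at least 2-fold lower, against a background of 4.51% of 10491 genes, and Esrrg remained at least 2-fold higher, against 3.66%. The 2 were Trpm5 and Cox6a2. Trpm5 had 11.8 CPM in Isl1CKO and 30.5 CPM expected from control cells of equal share (relative log2 ratio -1.41, interval -1.65 to -1.17). Cox6a2 was 29.9-fold lower against the floor, for which no interval was computed. Ucn3 stood at 60.7 CPM in Isl1CKO and 109 CPM in weighted control, a relative log2 ratio of -0.89 (-0.998 to -0.774). G6pc2 was at -0.91, Ffar1 at -0.63, Ero1lb at -0.57, Slc30a8 at -0.28 and Slc2a2 at -0.08. Esrrg was at 1.71 (0.84 to 2.59). All 9 kept the sign they had without the weighting.

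Within Isl1CKO, levels of several of the genes differed between cells with different sex-linked transcripts. Xist is transcribed from the inactive X chromosome of female cells, and the Y chromosome is carried by male cells. Cells with Xist UMIs and no Y-linked UMIs are called Xist cells here, and cells with Y-linked UMIs and no Xist Y-linked cells. The labels do not give the sexes of the pooled animals, so sex and animal cannot be told apart, and this split was chosen after its size had been seen. Among insulin-rich cells, 221 Xist cells and 130 Y-linked cells were counted in Isl1CKO, and 188 Xist cells and 615 Y-linked cells in control. In Isl1CKO, 22.3% of 989 Xist cells were insulin-rich, and 7.23% of 1799 Y-linked cells. In control these shares were 41.6% of 452 and 34.9% of 1761.

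Ucn3 stood at 89.4 CPM in Xist cells and 13.3 CPM in Y-linked cells of Isl1CKO, but at 139 and 156 CPM in those of control. A UMI of Ucn3 was found in 61.5% of Xist cells and 19.2% of Y-linked cells of Isl1CKO, and in 81.4% and 85.7% of those of control. Relative to the median gene, Ucn3 was 8.74-fold higher in Isl1CKO Xist cells than in Isl1CKO Y-linked cells (log2 ratio 3.13, 2.75 to 3.53), and in control that log2 ratio was -0.15 (-0.24 to -0.06). Of 6850 genes compared between these Isl1CKO cells, 3 had a higher ratio than Ucn3: Xist itself, Gm10320 and Ccl5, named after their values were seen.

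Trpm5 followed the same pattern, at 16.7 CPM in Xist cells and 4.15 CPM in Y-linked cells of Isl1CKO, and at 36.1 and 48.2 CPM in those of control. G6pc2 stood at 153 and 97.2 CPM in Isl1CKO and at 279 and 292 CPM in control, and Slc2a2 at 372 and 228 CPM in Isl1CKO and at 380 and 363 CPM in control. Of the 7 genes that passed the minimum in Isl1CKO, these 4 were at least 2-fold higher in Xist cells relative to the median gene, against a background of 1.28%, and none was lower, against 1.09%. In control none of 8 was 2-fold higher or lower, against backgrounds of 0.321% and 0.801%. Slc30a8 (400 and 449 CPM) and Ffar1 (33.8 and 36.5 CPM) were close together in Xist and Y-linked cells of Isl1CKO, and Cox6a2 had 0 UMIs in both.

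**Figure D3:**
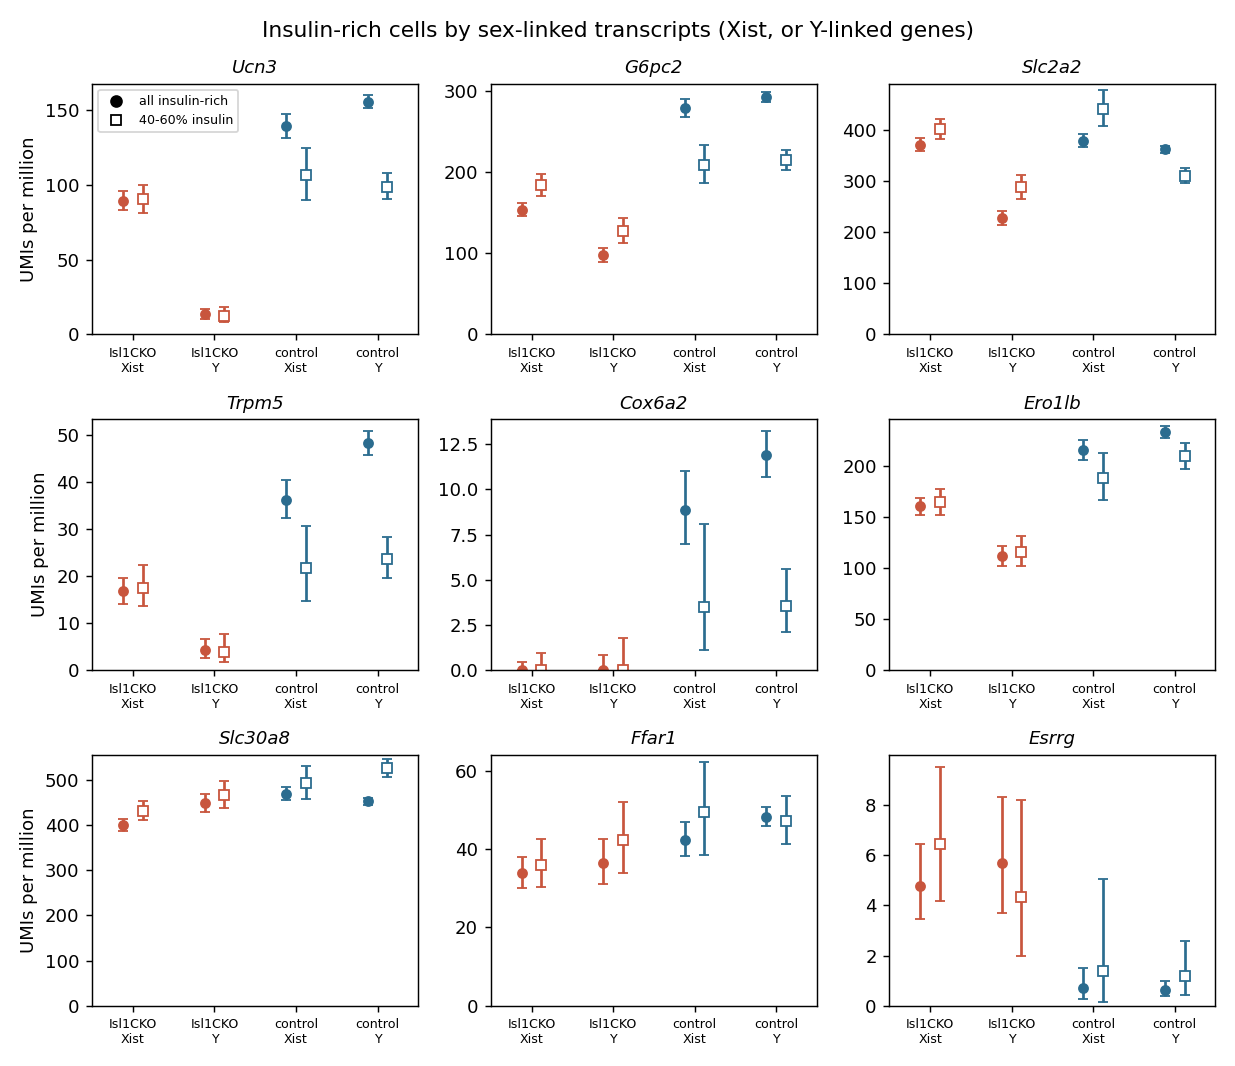
Level of each gene (CPM, axis from 0) in insulin-rich cells with Xist or with Y-linked transcripts, for Isl1CKO (left pair) and control (right pair). Filled circles are all insulin-rich cells, open squares those at 40 to 60% insulin, and bars are exact Poisson 95% intervals. Ucn3 and Trpm5 are low in Isl1CKO Y-linked cells in both sets, and Cox6a2 is at 0 in all Isl1CKO cells.

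Insulin share and Msln also moved with this split. Median insulin share was 57.4% in Xist cells and 40.0% in Y-linked cells of Isl1CKO, and 64.7% and 65.6% in those of control. Among cells at 40 to 60% insulin alone, Ucn3 stood at 90.3 CPM in 100 Xist cells and 12.5 CPM in 54 Y-linked cells of Isl1CKO, and at 106 CPM in 37 Xist cells and 99 CPM in 123 Y-linked cells of control. The Ucn3 gap in Isl1CKO was thus about as large in this range as in all insulin-rich cells, with a relative log2 ratio of 2.87 (2.289 to 3.499). For Trpm5 that ratio was 2.20 (1.14 to 3.47), whereas for Slc2a2 it was 0.49 in Isl1CKO and 0.59 in control, and for G6pc2 0.54 in Isl1CKO and 0.04 in control. In Isl1CKO 2 of 7 genes were thus at least 2-fold higher in Xist cells of this range and none lower, against backgrounds of 0.941% and 0.695%, and in control none of 7 was either, against 0.263% and 1.72%. At 20 to 40% insulin Ucn3 stood at 47.6 CPM in 37 Xist cells and 6.45 CPM in 65 Y-linked cells of Isl1CKO. At 60 to 80% the Ucn3 gap was smaller, at 100 CPM in 84 Xist cells and 45.7 CPM in 11 Y-linked cells (22 UMIs). Msln, the gene of the surface protein mesothelin, stood at 902 CPM in Xist cells and 317 CPM in Y-linked cells of Isl1CKO, and at 79.9 and 80.1 CPM in those of control.

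The distance between the genotypes differed with the cells compared. Among Y-linked cells, Ucn3 had a relative log2 ratio of Isl1CKO over control of -4.19 (-4.58 to -3.83), and among Xist cells one of -0.91 (-1.04 to -0.78). Trpm5 had -4.18 among Y-linked cells and -1.38 among Xist cells, and G6pc2 had -2.23 and -1.13. Among Y-linked cells 7 of 8 genes were at least 2-fold lower, against a background of 6.69%. Among Xist cells 3 of 8 were, against a background of 3.26%. At 40 to 60% insulin 2 of 7 genes, Ucn3 and Trpm5, were lower among Y-linked cells, against a background of 3.43%, and none of 6 among Xist cells, against 1.77%. Among these Xist cells Ucn3 was at -0.39 (-0.67 to -0.11). Trpm5 did not pass the minimum there, at -0.46 (-1.09 to 0.20), and is not among the 6. Cox6a2 was at 0 in Isl1CKO in either set, against 11.9 CPM in Y-linked cells and 8.84 CPM in Xist cells of control. Esrrg stood at 5.68 CPM in Y-linked cells and 4.76 CPM in Xist cells of Isl1CKO, against 0.639 and 0.689 CPM in control, so its difference was of like size in both, although its UMIs there were below the minimum.

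**Figure D4:**
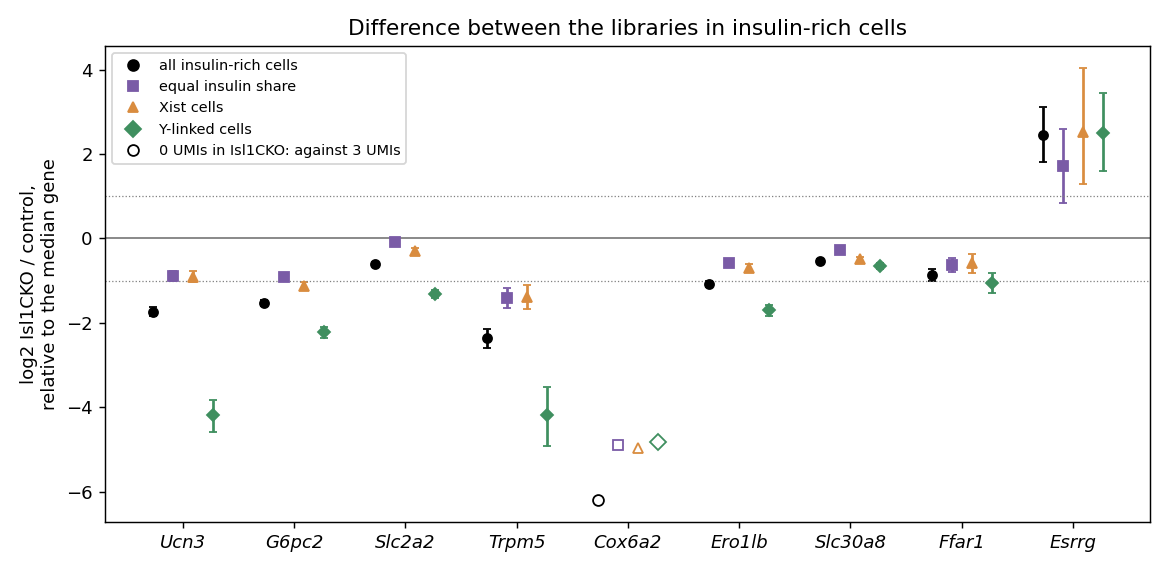
Log2 ratio of Isl1CKO over control in insulin-rich cells, relative to the median gene, for all cells, at equal insulin share, and for Xist and Y-linked cells alone. Bars are 95% counting intervals, dotted lines mark 2-fold, and open symbols are against a floor of 3 UMIs. Ucn3 and Trpm5 lie near -4.19 and -4.18 among Y-linked cells, far below their values among Xist cells, whereas Esrrg lies above the upper line in all 4.

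Cells with and without Msln differed in Ucn3 and Trpm5 in Isl1CKO. Ucn3 stood at 70.4 CPM in 270 Msln-positive cells and 32.5 CPM in 113 Msln-negative cells of Isl1CKO, and at 155 and 150 CPM in 287 and 611 such cells of control. Trpm5 stood at 14.1 and 5.06 CPM in Isl1CKO and at 41.4 and 47.4 CPM in control. These 2 of 7 genes were at least 2-fold higher in Msln-positive cells of Isl1CKO and none was lower, against backgrounds of 0.881% and 0.448%, and in control none of 8 was either, against 0.159% and 0.605%. Below 2-fold, G6pc2 (relative log2 ratio 0.71) and Slc2a2 (0.80) were higher in Msln-positive cells of Isl1CKO, and Cox6a2 was lower in Msln-positive cells of control (-0.65, -0.97 to -0.34). Among Msln-positive cells 4 of 8 genes were at least 2-fold lower in Isl1CKO than in control, against a background of 2.72%, and among Msln-negative cells 7 of 8 were, against 7.42%. Msln detection went with depth and insulin share in Isl1CKO, with medians of 40854.5 UMIs and 53.7% insulin in Msln-positive cells and 32211 UMIs and 40.6% in Msln-negative cells.

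Counted per cell, smaller shares of Isl1CKO cells held Ucn3, Trpm5 and Cox6a2. After every cell was thinned to 10000 UMIs, which left out 2 Isl1CKO and 6 control insulin-rich cells, Ucn3 was found in 25.7% of Isl1CKO cells (21.4 to 30.4, exact binomial) and 60.4% of control cells (57.1 to 63.7). Trpm5 was found in 7.87% of Isl1CKO cells and 29.2% of control cells, and Cox6a2 in 0 of 381 Isl1CKO cells and 8.18% of control cells. A count of 0 allows up to 0.787% of Isl1CKO cells with a UMI at this depth (3 of 381; exact binomial limit 0.963%), and does not limit the share of cells that express the gene. Slc30a8 was found in 94.8% of Isl1CKO cells and 96.4% of control cells. Without thinning, Ucn3 was found in 44.6% of Isl1CKO cells. For comparison, control Sst-rich cells thinned in the same way held Ucn3 in 1.31%, Trpm5 in 2.41% and Slc2a2 in 3.28% of cells. Before thinning, their summed levels were 2.3, 8.73 and 10.5 times what free RNA would give if it carried the insulin those cells held. How much of these shares was free RNA was not tested.

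Of the 9 genes, the median number found in a thinned insulin-rich cell was 4 in Isl1CKO and 5 in control. At least 6 were found in 7.87% of Isl1CKO cells and 33.4% of control cells, and at most 2 in 19.2% of Isl1CKO cells and 4.48% of control cells. None of the 9 was found in 1 Isl1CKO cell and 3 control cells.

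Across classes of at least 50 cells, defined by which hormone or marker RNA took a set share of UMIs, Ucn3, Slc2a2, Trpm5 and G6pc2 had their highest level in insulin-rich cells of the same library. Slc2a2 stood at 318 CPM in Isl1CKO insulin-rich cells, 84.1 in cells with 5 to 20% insulin, 20.9 in Chgb-rich cells, 8.84 in the remainder, 3.41 in Fev-positive cells and 1.30 in Ttr-rich cells. In control it stood at 366 CPM in insulin-rich cells, 15.6 in the remainder, and between 3.28 and 4.71 in Gcg-rich, Ppy-rich and Sst-rich cells, whose intervals overlapped. Relative to the median gene, 7 of 8 genes were at least 2-fold higher in Isl1CKO insulin-rich cells than in Ttr-rich cells (background 8.62%), and likewise 7 of 8 against Chgb-rich cells (3.68%), as were 7 of 7 against Fev-positive cells (5.6%) and against the remainder (9.18%). In control 7 of 9 were higher than in Gcg-rich cells (8.61%), 8 of 8 than in Sst-rich cells (7.38%) and 8 of 8 than in Ppy-rich cells (9.81%). In each of these comparisons the median gene lay lower in insulin-rich cells, by between 0.81 (Ppy-rich) and 1.23 (Fev-positive) on the log2 scale. Slc30a8 thus counted as 2-fold higher than in Ttr-rich cells, at 1.08, with 419 and 353 CPM. A gene with the higher CPM in the other class needed 50 UMIs there to be counted. Esrrg fell short of this against Fev-positive cells, the Isl1CKO remainder, Sst-rich cells and Ppy-rich cells. Its relative log2 ratios there were 0.88, -0.40, 1.00 and -0.07. Cox6a2 was not counted in these Isl1CKO comparisons either. Trpm5 also had 20.7 CPM in the 22 mesenchymal cells of Isl1CKO and 24.2 CPM in the 45 of control, from few UMIs.

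**Figure D5:**
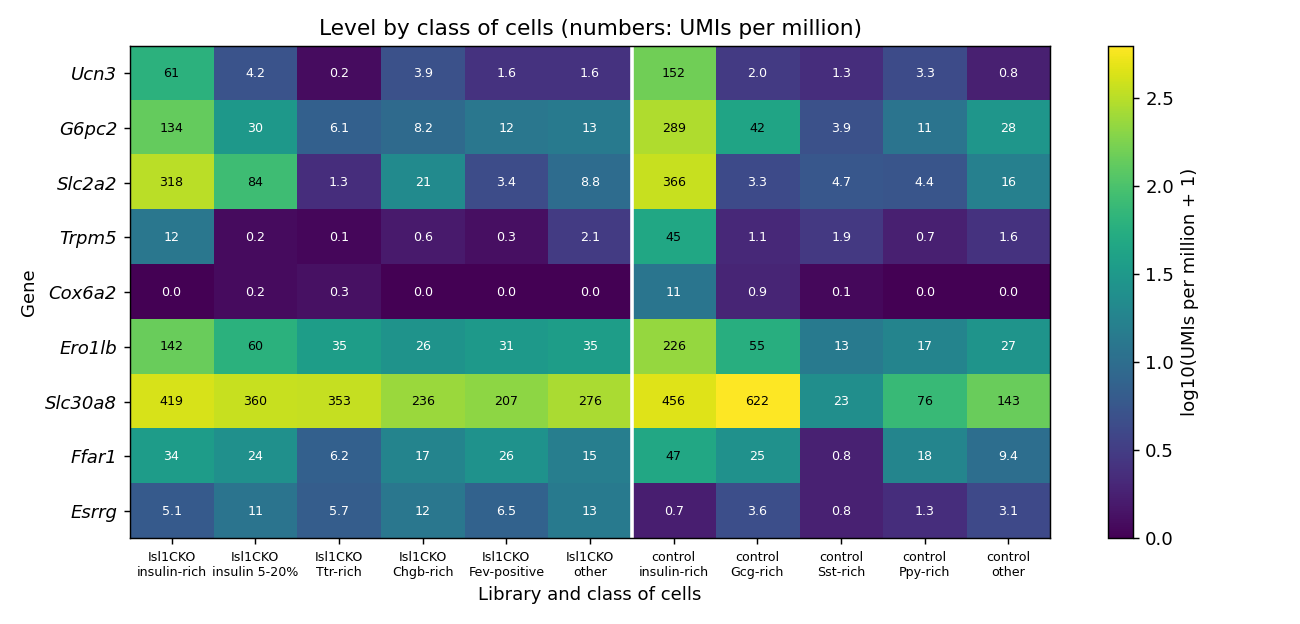
Level of each gene by library and class of cells, with the 6 Isl1CKO classes left of the 5 control classes that hold at least 50 cells. Printed numbers are CPM, and colour is log10 of CPM plus 1. Slc30a8 is high in most classes, reaching 622 in control Gcg-rich cells, and Ucn3 and Trpm5 are low outside insulin-rich cells.

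Within Isl1CKO the levels of most of the genes were lower in the 192 cells with 5 to 20% insulin than in insulin-rich cells. Ucn3 stood at 60.7 and 4.25 CPM, Trpm5 at 11.8 and 0.212 CPM (1 UMI), G6pc2 at 134 and 29.9 CPM, and Slc30a8 at 419 and 360 CPM. The median gene lay 0.83 lower in insulin-rich cells on the log2 scale. Relative to it, 7 of 8 genes were at least 2-fold higher in insulin-rich cells, against a background of 2.43%. Slc30a8 (1.051) and Ffar1 (1.305, at 33.9 and 24.4 CPM) reached 2-fold only through that centring. The enterochromaffin list summed to 9736 CPM in insulin-rich cells, 53110 CPM in cells with 5 to 20% insulin and 59620 CPM in Chgb-rich cells of Isl1CKO, and its part in the difference was not tested. Control had 10 cells in that range, too few to describe.

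Some of the genes were not confined to insulin-rich cells. G6pc2 stood at 42.4 CPM in control Gcg-rich cells, 56.2 times what free RNA would give there if it carried the insulin those cells held, and Ero1lb at 55.5 CPM, 115 times. Slc30a8 stood at 622 CPM in control Gcg-rich cells, above the 456 CPM of insulin-rich cells, yet relative to the median gene insulin-rich cells were higher by 0.65 on the log2 scale, so the direction turns with the centring. In Isl1CKO, whose cells included 2 that were Gcg-rich, Slc30a8 stood at 353 CPM in the 1525 Ttr-rich cells. Ffar1 stood at 24.8 CPM in Gcg-rich and 17.6 CPM in Ppy-rich cells of control but at 0.807 CPM in Sst-rich cells, and at 25.7 CPM in Fev-positive and 6.17 CPM in Ttr-rich cells of Isl1CKO.

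Esrrg was not highest in insulin-rich cells of either library. In Isl1CKO it ranged between 5.11 CPM in insulin-rich cells and 13.0 CPM in the remainder, with 11.8 CPM in Chgb-rich cells and 5.66 CPM in Ttr-rich cells, and in control between 0.701 CPM in insulin-rich cells and 3.64 CPM in Gcg-rich cells. Over UMIs outside the islet hormones insulin-rich cells were not the lowest: Esrrg stood there at 11.2 CPM in insulin-rich, 5.69 CPM in Ttr-rich and 6.69 CPM in Fev-positive cells of Isl1CKO, and at 2.26 CPM in insulin-rich and 1.16 CPM in Sst-rich cells of control. Cox6a2 had 16 UMIs in all of the Isl1CKO library, 15 of them in 9 Ttr-rich cells, against 497 UMIs in the control library, 13 of them in Gcg-rich cells. One control Chgb-rich cell held 41 UMIs of Ucn3, the most of any control cell, with 0.233% insulin and no UMI of the other 8 genes.

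Summed over all called cells, where makeup and level per cell both enter, 7 of the 9 genes were at least 2-fold lower in Isl1CKO, against a background of 6.82% of 14420 genes, and Esrrg was higher, against 5.21%. Slc2a2 stood at 68.3 CPM in Isl1CKO and 218 CPM in control over all cells, a relative log2 ratio of -2.25 where insulin-rich cells alone gave -0.61. Fewer insulin-rich cells and less RNA per cell cannot be told apart in that sum.

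Other genes of the same processes were taken from lists. Of 16 maturation regulators and receptors, 6 were at least 2-fold lower in Isl1CKO insulin-rich cells and none higher, with a median relative log2 ratio of -0.13, beside backgrounds over all genes of 4.73% lower and 4.97% higher that hold for each list here. At equal insulin share 4 of the 16 were, Sytl4 (-0.68) and Ppp1r1a (-0.59) no longer among them. The 6 were Mafa, with 0.272 CPM in Isl1CKO and 2.97 CPM in control (relative log2 ratio -3.86), Glp1r, the receptor for glucagon-like peptide, with 1.70 and 6.06 CPM (-2.24), Prss53 (-2.20), the prolactin receptor gene Prlr (-1.88), the granule docking gene Sytl4 (-1.29) and Ppp1r1a (-1.06). Nkx6-1 (-0.14), Nkx2-2 (-0.07), Neurod1 (0.00) and Pax6 (-0.11), which specify and maintain endocrine cells, lay near the median gene. Pdx1, of the same list, was lower but short of 2-fold, at 113 CPM in Isl1CKO and 153 CPM in control. Its relative log2 ratio was -0.83 over UMIs outside the islet hormones and -0.59 (-0.68 to -0.49) at equal insulin share. Of the 10 genes for glucose metabolism and coupling that passed the minimum, 1 was lower, Pklr, a pyruvate kinase gene, with 17 UMIs in Isl1CKO and 100 in control (-1.43).

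Of 8 measured genes of immature or normally silent function, 5 were at least 2-fold higher in Isl1CKO insulin-rich cells and 1 lower. Gast stood at 26.9 CPM in Isl1CKO and 2.03 CPM in control, Fev at 79.5 and 7.55 CPM, Aldh1a3 at 5.25 and 0.701 CPM, and Neurog3 at 10.3 and 1.61 CPM, and Dlk1 had a relative log2 ratio of 1.17. Npy had 0 UMIs in Isl1CKO and 2406 in control. At equal insulin share Neurog3 was no longer 2-fold higher, at 0.66, nor Creld2 of the folding list 2-fold lower, at -0.80. Other calls appeared only with that weighting. Cck of the immature list was 2-fold lower, at -1.57, and Cacna1d of the glucose metabolism and coupling list 2-fold higher, at 1.11. Gpr119, a receptor for fatty acid amides on beta cells, had 4 UMIs in Isl1CKO and 144 in control. Of 14 measured paralogs of the 9 genes 1 was lower and 1 higher, shares near the background: Ffar3 was lower, with 1.91 CPM in Isl1CKO and 4.65 CPM in control, and the cation channel gene Trpm3 higher, with 5.79 and 0.865 CPM. Each of these lists was chosen with earlier results of these data known.

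Likeness of pattern was measured by Pearson's r of log2(CPM + 1) across the 11 classes that held at least 50 cells, over 11662 genes. Classes of a library share that library and its depth, and insulin RNA dilutes all genes in the same cells. Nearest to Ucn3 were Tmem215 (r = 0.94), Angptl7 (0.93) and Pcx (0.93), and nearest to G6pc2 were Tmem215 (0.95) and Ero1lb (0.93). Nearest to Slc2a2 were Ins1 (0.97) and Ins2 (0.96), whose summed share also defined the insulin classes. Nearest to Cox6a2 were Kcnj12 (0.94), Mafa (0.94) and Npy (0.91), and nearest to Trpm5 were Angptl7 (0.94), Gpr158 (0.92) and Ucn3 (0.90). Cox6a2 stood at 11.3 CPM in control insulin-rich cells and at most 0.946 CPM in the other classes, so its r rests largely on that class. Slc30a8 was nearest to Ankrd33b (0.92), Ffar1 to Ociad2 (0.89) and Esrrg to Ctif (0.96).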

How the data were processed

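The deposited values were raw UMI counts, whole and not normalized, of 10x Chromium 3′ libraries. STAR 2.7.3a, STARsolo, Seurat 4.3.0.1 and GRCm38.p6 stand in the submitters' processing notes without roles. Per the labels' protocols, the cells were dissociated with actinomycin D, which blocks transcription. The deposited Isl1CKO matrix held 3020 barcodes, the lowest with 4882 UMIs, and so was filtered before deposit. The control matrix was not, and control cells were barcodes with at least 6825 UMIs, 1/10 of the 99th percentile of the top 3000.

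Cells were classed in the order mesenchymal markers at least 1%, insulin at least 20%, another islet hormone at least 5%, insulin 5 to 20%, Ttr or Chgb at least 2%, and Fev at least 3 UMIs. UMIs were summed per class (CPM). A 3′ UMI is not scaled by gene length. Intervals were Clopper-Pearson for shares, exact Poisson for levels and, for ratios, exact binomial given the summed UMIs. Ratios at equal insulin share instead had intervals from a normal approximation to counting error (delta method). No doublet caller was run; leaving out cells with 1% or more of another hormone was an alternative. Genes at 0 were set against 3 UMIs. The ratio code was tested on simulated data. Python 3.11.15, numpy 2.4.6, scipy 1.17.1 and pandas 2.3.3 were used. The 9 genes, the lists, the classes and the alternatives were chosen with earlier results of these data known. All 9 genes are named whatever their values; further genes come from the lists, are the nearest in pattern to each gene, or overlap its exons, except those said to be named after their values were seen.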

Additional observations from a re-analysis of the deposited data

How the results depend on the processing

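All 9 genes kept their sign in each of 19 alternatives for insulin-rich cells, 8 at equal insulin share and 4 over all cells. Not every alternative was a check: a limit of 15% mitochondrial UMIs left the ratios in insulin-rich cells as they were. Signs of genes below the minimum are included, since 8 genes passed it with cells thinned, in Xist cells and in Y-linked cells. In insulin-rich cells the relative log2 ratio of Ucn3 ranged between -4.19 (Y-linked cells) and -0.91 (Xist cells), of Trpm5 between -4.18 and -1.38 (the same cells), and of Esrrg between 2.32 and 2.87. Among Xist cells 3 genes, against 5 in all cells, were at least 2-fold lower. At equal insulin share 4 of 8 genes were lower among Y-linked cells (beside 5.48% of all 8363 genes) and 1 of 8 among Xist cells (beside 3.55% of all 7774 genes), against 2 of 9 in all cells. Ero1lb was no longer 2-fold lower without centring (-0.67) or at 40% or more insulin (-0.83), which left 4 genes lower, and at 5% or more insulin 7 were.

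Counts over all genes in insulin-rich cells, 477 lower and 501 higher, came to 218 lower and 241 higher with cells thinned to 10000 UMIs, 328 higher in Y-linked cells, 257 lower in Xist cells, 796 lower with a minimum of 20 UMIs, and 1535 lower and 4317 higher with no minimum. Without centring on the median gene they were 256 lower and 1112 higher, since the median gene lay 0.41 higher. At equal insulin share 276 genes in Xist cells compare with 473 in all cells. Fewer cells or UMIs were compared in the thinned and sex-linked sets, and the cause of the other changes was not tested.

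No paired analysis was possible because each genotype has 1 library. Without replicates, no value separates genotype from library, pool or sorting day. The Isl1CKO matrix holds no empty droplets, so free RNA was subtracted from control sums alone, at 3.69% of insulin-rich UMIs. Esrrg and Cox6a2 rest on the fewest UMIs.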
